A study of Rattus norvegicus with 4 samples.

Results

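The AP-1 Fos and Jun family was followed across the cell types of rat abdominal fascia, in single-cell RNA libraries from rats with Salmonella dysentery that were given acupuncture or were not. Its members were taken by symbol from the gene lists of all 4 matrices: Fos, Fosb, Fosl1, Fosl2, Jun, Junb and Jund, 7 of the 30560 gene rows, with 1 row each. The acupuncture group is 2 libraries from subcutaneous fascia of dysenteric rats needled after infection, and the dysentery group is 2 libraries from the same tissue of dysenteric rats without needling. Both groups carry the infection, so no library here is from an uninfected rat. The labels used here give no strain, sex, age, acupuncture schedule or animal number for either group, and whether a library is 1 animal or a pool is not said. The 2 groups follow the titles, which the descriptions and the design text match. In all 4 libraries, however, the label for treatment carries the name of the other group. Directions below follow the titles, and each of them would turn round under that label.

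AP-1 is a transcription factor built as a pair of basic leucine zipper proteins. Fos proteins pair only with partners such as Jun proteins, whereas Jun proteins can also pair with each other. Fos, Fosb, Jun and Junb are immediate early genes, transcribed within minutes of growth factors, cytokines, stress or mechanical stimuli and shut off again soon after. Fosl1 and Fosl2 (the proteins Fra-1 and Fra-2) typically follow later, and Jund is expressed more constantly. In fibroblasts the family is known for driving matrix protease and cytokine genes, and in myeloid cells for the early inflammatory response.

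Junb was called higher in fibroblasts, macrophages and dendritic cells, Jund was the member that changed least in fibroblasts, and Fosl1 was highest in neutrophils. Promoter sequences of these 3 members, chosen among the members with a matched sequence, are shown as examples of these patterns. They are RefSeq sequences on the GRCr8 assembly, each running 5′ to 3′ over 300 bases, from 250 bases before the annotated gene start to 50 after it. Of the 7 members, 5 were matched in that table (Fosb, Fosl1, Fosl2, Junb and Jund). Junb lies at chr19:40080876-40081175, plus strand, Jund at chr16:18769722-18770021, minus strand, and Fosl1 at chr1:212183635-212183934, plus strand. Capitals mark the motifs that were searched for.
Junb: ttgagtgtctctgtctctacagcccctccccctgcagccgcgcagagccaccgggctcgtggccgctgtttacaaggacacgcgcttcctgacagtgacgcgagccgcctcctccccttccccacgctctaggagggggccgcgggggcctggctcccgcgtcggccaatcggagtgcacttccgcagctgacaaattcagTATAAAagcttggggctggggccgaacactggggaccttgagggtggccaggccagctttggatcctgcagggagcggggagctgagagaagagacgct
Jund: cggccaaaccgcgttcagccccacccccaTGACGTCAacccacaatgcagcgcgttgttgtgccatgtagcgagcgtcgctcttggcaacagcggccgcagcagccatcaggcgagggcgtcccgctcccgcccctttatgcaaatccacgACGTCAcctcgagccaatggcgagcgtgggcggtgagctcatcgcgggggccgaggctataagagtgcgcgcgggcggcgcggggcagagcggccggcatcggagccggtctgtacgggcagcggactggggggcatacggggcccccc
Fosl1: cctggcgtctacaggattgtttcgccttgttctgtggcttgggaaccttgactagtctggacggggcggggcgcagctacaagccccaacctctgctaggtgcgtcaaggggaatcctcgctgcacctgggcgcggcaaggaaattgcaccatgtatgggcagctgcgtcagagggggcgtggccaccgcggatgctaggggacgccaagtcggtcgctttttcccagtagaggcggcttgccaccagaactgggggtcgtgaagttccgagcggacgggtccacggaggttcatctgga
The motifs were the cAMP response element TGACGTCA, its core ACGTCA, the AP-1 site TGAGTCA and the serum response (CArG) element by its consensus, each on both strands, and TATAAA on the gene's strand. Every TGACGTCA also holds the core. Jund carried TGACGTCA at -221 to -214 from the gene start and a separate core ACGTCA at -99 to -94. Junb carried TATAAA at -49 to -44, and Fosl1, Fosl2 and Fosb held none of the 5 motifs in this window. Of 33469 rat promoter windows, 1.83% held TGACGTCA, 7.94% the core, 4.63% TGAGTCA, 1.64% the CArG element and 8.80% TATAAA. A match describes letters in this window only.

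The libraries were made from enzyme-digested tissue with 10x Genomics droplets, which count molecules (unique molecular identifiers, UMIs) at the 3′ end of transcripts. With acupuncture, 8930 and 10060 cells gave 70499776 and 93897006 UMIs per library. In dysentery, 7965 and 11327 cells gave 53066666 and 79461544 UMIs. Cells over the mitochondrial limit of 20% made up 16.0% of dysentery replicate 1 and at most 7.17% of any other library. Any pair of libraries shared 19 to 32 cell barcodes. Cells were assigned to types by marker genes that include no AP-1 member, and cells with markers of 2 types were left out. Tests were run on the 7 cell types with 30 or more cells in each library. They run from fibroblasts (4005 and 3758 cells with acupuncture, 2892 and 6768 in dysentery) to dendritic cells (35 and 108 cells with acupuncture, 94 and 78 in dysentery). Levels are given as UMIs per 1000000 summed UMIs of that cell type in that library (CPM), a scale with no length term, since 3′ counting reads 1 end per molecule. With summed cells, more cells with a transcript and more transcript per cell cannot be told apart, so shares of cells are given separately below.

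The order of the 7 tested cell types by family RNA was not the same in the groups. The 7 members' share of all UMIs was highest in macrophages with acupuncture (1.75% ± 0.0602) and in neutrophils in dysentery (1.90% ± 0.0536, SD, n = 2 each). It was lowest in vascular endothelial cells with acupuncture (0.535% ± 0.0555) and in fibroblasts in dysentery (0.273% ± 0.0354). By mean CPM over the 4 libraries and within the tested types, neutrophils were first for Fosl1, Fosl2, Jun and Junb, and natural killer cells for Fos, Fosb and Jund. The test between types scales each sum by TMM factors (a trimmed mean of ratios to the other sums), and neutrophils stood higher on it than in plain CPM. On that scale all 7 members were higher in neutrophils than in the mean of the other types (edgeR quasi-likelihood test in 1 fit of 28 sums with the library as a block, adjusted p 2.43e-14 for Fosl1 to 3.69e-05 for Jun), where 25.7% of the 10213 genes tested were called higher. Fosl1 stood furthest apart: neutrophils held 96.6 and 117 CPM with acupuncture and 181 and 207 CPM in dysentery, while dendritic cells, next in order, held 20.4 and 26.7 CPM with acupuncture and 3.44 and 6.90 CPM in dysentery. Its level in neutrophils was 5.72 ± 0.32 (SE) above the other types on the log2 scale, and every neutrophil library was above every library of every other tested type. Fosl2 was also highest in neutrophils, with 136 and 100.3 CPM with acupuncture and 90.5 and 82.0 CPM in dysentery. Its log2 level there was 3.07 ± 0.23, and natural killer cells, not dendritic cells, were next in order. The 5 other members had log2 levels of 1.58 to 2.08 in neutrophils.

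Fibroblasts were lower than the other types for 6 of 7 members, where 29.4% of all genes were called lower, with Jun the exception (log2 -0.66 ± 0.39, adjusted p = 0.137). Vascular endothelial cells were also lower for 6 of 7, against 21.3% of all genes, and Jun was again the exception (log2 -0.69 ± 0.39, adjusted p = 0.149). In natural killer cells Fosb (1.23) and Fosl2 (1.23) were higher, 2 of 7 against 24.2% of all genes. Macrophages were lower for Fosl1 alone (log2 -1.40, adjusted p = 0.00264), 1 of 7 against 18.3%. No member passed in T cells or dendritic cells (0 of 7 each in edgeR, with 0 at an unadjusted p below 0.05 in T cells and 1, Jun, in dendritic cells). In T cells 24.4% of all genes were called higher and 24.2% lower, and in dendritic cells 23.6% higher and 16.3% lower. Ranked by their mean over the 4 libraries, Fos was highest in natural killer cells (4419 CPM ± 1650 SD) and lowest in endothelial cells (1188 ± 184), and Junb was highest in neutrophils (4671 ± 421) and lowest in fibroblasts (1118 ± 719.7). Most neighbours in these orders differed by less than the spread over the 4 libraries. The exceptions were Fosl1, Fosl2 and Fosb at their top, Fosl2 between natural killer and T cells, Fosl1 between T and endothelial cells, Fos between T cells and fibroblasts, and Jund between fibroblasts and endothelial cells.

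**Figure D1:**
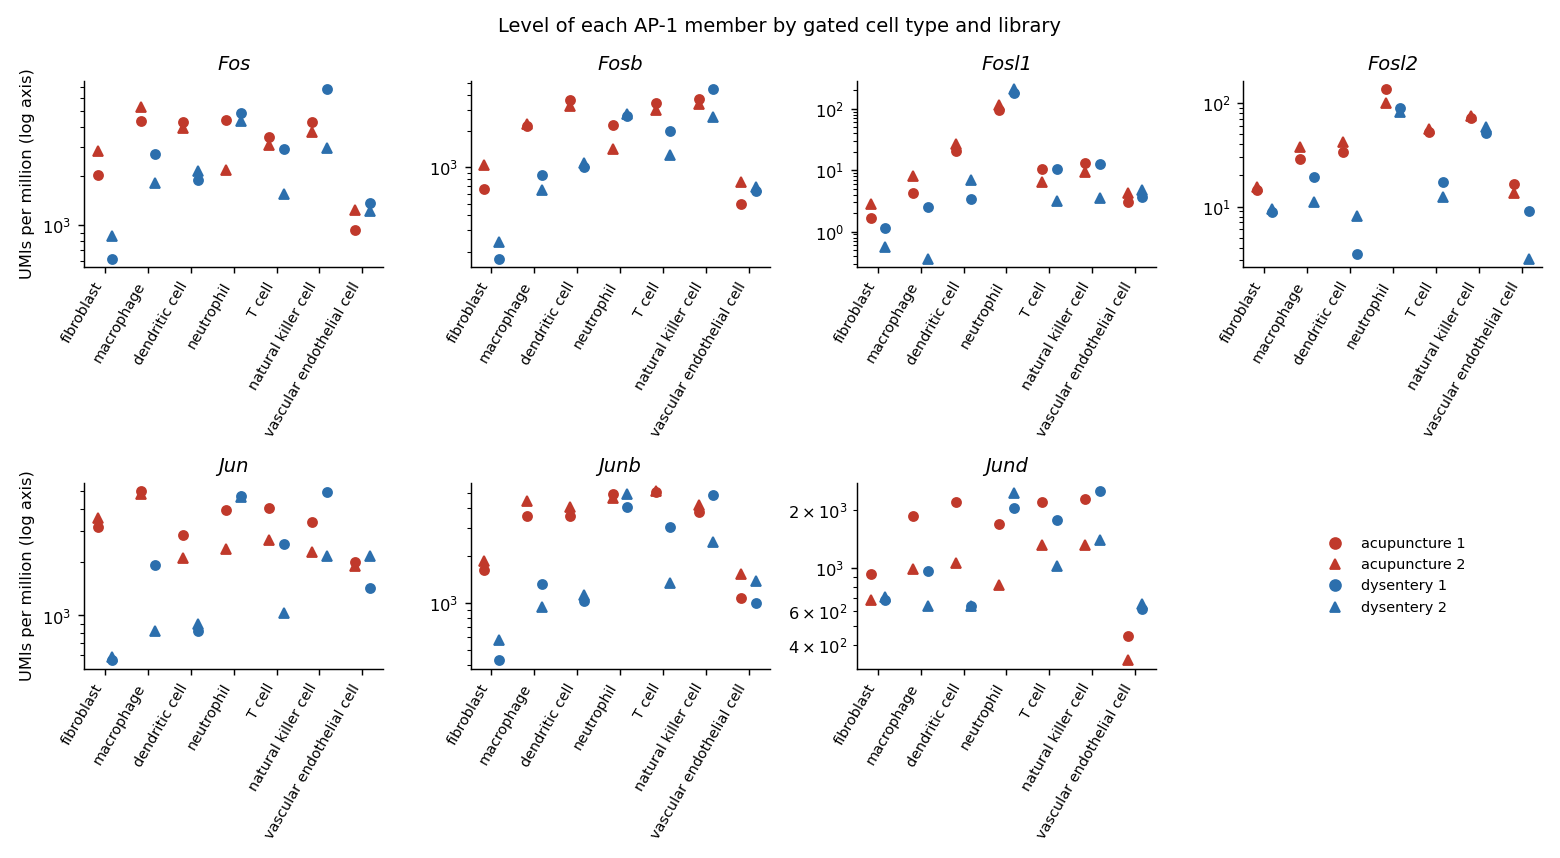
Level of each AP-1 member in CPM (log axis, scaled separately for each member) by gated cell type; each point is 1 library, with the acupuncture libraries in red left of the dysentery libraries in blue. In fibroblasts, Jun stands at 3160 and 3527 with acupuncture against 558 and 580.2 in dysentery, while the Jund points of the groups overlap; Fosl1 is above 90 in every neutrophil library and below 30 elsewhere.

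In fibroblasts, the matrix-producing cells of fascia, the immediate early members were 3.34-fold (Fos) to 5.96-fold (Jun) higher with acupuncture in the fit. Calls are at an adjusted p below 0.05 (Benjamini-Hochberg over all genes of that cell type), and Jun, Fosb, Junb and Fos were called higher (4 of 7, with 1.87% of the 13398 genes tested there called higher), while 0 were called lower, against 0.888% of genes. Jun, the founding Jun protein, had 3160 and 3527 CPM with acupuncture, against 558 and 580.2 CPM in dysentery. Its log2 fold change was 2.57 ± 0.18 (SE; edgeR quasi-likelihood test, adjusted p = 0.00509), the largest of the family in this cell type. Junb, which can hold Jun activity in check, had 1605 and 1859.6 CPM with acupuncture, against 427 and 580.4 CPM in dysentery (log2 1.80 ± 0.23, adjusted p = 0.0252). Fosb had 658 and 1045 CPM with acupuncture, against 174 and 239 CPM in dysentery (log2 2.07 ± 0.32, adjusted p = 0.0363). Fos had 2024 and 2854 CPM with acupuncture, against 622 and 861 CPM in dysentery (log2 1.74 ± 0.29, adjusted p = 0.0440). In each of these 4 genes both acupuncture libraries were above both dysentery libraries.

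The remaining members did not pass in fibroblasts. Jund had 932 and 687 CPM with acupuncture, against 686 and 708 CPM in dysentery, so that the groups overlapped (log2 0.22 ± 0.15, adjusted p = 0.453). Fosl2 had 14.5 and 15.3 CPM with acupuncture, against 8.86 and 9.43 CPM in dysentery (log2 0.72 ± 0.14, adjusted p = 0.0595), and its groups did not overlap. Fosl1 was close to the limit of detection, with 53 and 106 UMIs in all fibroblasts of the acupuncture libraries against 25 and 27 UMIs in dysentery (log2 1.50 ± 0.48, adjusted p = 0.157). Both acupuncture libraries were above both dysentery libraries for 6 of the 7 members, as for 24% of all genes tested. Jun and Junb passed in each of the 4 fits that left out 1 library. Fosb lost its call without dysentery replicate 1 (adjusted p = 0.0510) or dysentery replicate 2 (0.0778), and Fos without acupuncture replicate 2 (0.0764), dysentery replicate 1 (0.0589) or dysentery replicate 2 (0.0750), which left 2 called members without either dysentery library.

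Other values moved with the groups in the fibroblast sums. The 12 measured heat shock genes summed to 5086 and 5754 CPM with acupuncture, against 3246 and 2978 CPM in dysentery. All 7 neutrophil markers together gave 172 and 156 CPM with acupuncture, against 543 and 489 CPM in dysentery, where 1 and 2 of them were at 0. Macrophage markers gave 109 and 89.4 CPM with acupuncture and 81.2 and 61.8 CPM in dysentery, with 0 of 8 at 0 in any library. The part of these in the fibroblast results was not tested.

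Macrophages, the tissue phagocytes, showed a positive change in all 7 members, and 3 of them rose past the threshold, with 3.66% of the 11798 genes tested called higher. Junb had 3603 and 4463 CPM with acupuncture, against 1318 and 941 CPM in dysentery (edgeR log2 1.92 ± 0.20 SE, adjusted p = 0.0210). Fosb had 2196 and 2273 CPM with acupuncture, against 866 and 651 CPM in dysentery (log2 1.64 ± 0.16, adjusted p = 0.0202). Fos had 4324 and 5284 CPM with acupuncture, against 2733 and 1809 CPM in dysentery (log2 1.17 ± 0.22, adjusted p = 0.0485). No library of 1 group fell within the range of the other for any member (7 of 7 separated upward, against 23.5% of genes).

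Jun had as large a difference in macrophages as Junb but a wider spread, with 5007 and 4831 CPM with acupuncture, against 1931 and 814 CPM in dysentery (log2 1.93 ± 0.39, adjusted p = 0.0540). Fosl2 (log2 1.22, adjusted p = 0.0703), Jund (0.91, adjusted p = 0.182) and Fosl1 (2.30, adjusted p = 0.138) did not pass either, and Fosl1 rested on 82 and 247 UMIs with acupuncture against 19 and 4 in dysentery. The calls of Junb, Fosb and Fos did not hold without acupuncture replicate 1 or without acupuncture replicate 2. The log2 values were then 2.08 and 1.74 for Junb, 1.68 and 1.60 for Fosb, and 1.31 and 1.00 for Fos. Without dysentery replicate 1 or 2 the calls held, at 2.15 and 1.72 for Junb, 1.83 and 1.48 for Fosb, and 1.46 and 0.92 for Fos. The number of all genes called in macrophages also ran widely, from 0 to 2356 over the alternatives tried. Dysentery replicate 2 was the lower of the dysentery pair for every member in this cell type. Heat shock genes summed to 6499 and 8257 CPM in macrophages with acupuncture, against 5248 and 3553 CPM in dysentery, and their part was not tested.

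Dendritic cells, which carry antigen to lymph nodes, were the only tested type in which every member passed the threshold. There 7 of 7 were called higher, with 3.88% of the 6934 genes tested called higher. All 7 values were also positive in fibroblasts, macrophages and T cells. Junb had 3565 and 4093 CPM with acupuncture, against 1026 and 1123 CPM in dysentery (log2 1.85 ± 0.13, adjusted p = 4.44e-06 in edgeR). Fosb had 3599 and 3208 CPM with acupuncture, against 1006 and 1089.6 CPM in dysentery (log2 1.72 ± 0.13). Jun had 2822 and 2118 CPM with acupuncture, against 823 and 895 CPM in dysentery (log2 1.54 ± 0.16), and Fos had 4259 and 3937 CPM with acupuncture, against 1876 and 2143 CPM in dysentery (log2 1.05 ± 0.13). In these 4 genes the lower acupuncture library was above the higher dysentery library, as it was for all 7 members (against 22% of genes).

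Jund, not called in any other cell type by this test, had 2194 and 1059.6 CPM in dendritic cells with acupuncture, against 638 and 634 CPM in dysentery (log2 1.37 ± 0.26, adjusted p = 0.00641), and adjusted p = 0.166 in DESeq2. Fosl2 had the largest change, 34.0 and 42.3 CPM with acupuncture against 3.44 and 8.05 CPM in dysentery (edgeR log2 2.84 ± 0.41, adjusted p = 0.000876). It rested on few UMIs in dysentery, 0.0640% of 6248 and 0.137% of 5128 family UMIs. Fosl1, with 9 and 36 UMIs with acupuncture against 4 and 6 in dysentery, passed at 0.0117 and lost its call without acupuncture replicate 2 (0.236) or dysentery replicate 1 (0.115). The 6 other members passed in each fit that left out 1 library. Only 35 cells stood behind acupuncture replicate 1. The bare minimum of 3 markers was met by 16 of 35 and 48 of 108 dendritic cells with acupuncture, against 23 of 94 and 27 of 78 in dysentery. The part of this was not tested. Macrophage markers in the dendritic sums were similar in both groups, at 385 and 472 CPM with acupuncture and 428 and 473 CPM in dysentery, with 1 of 8 at 0 in every library.

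T cells had positive values for all 7 members but 1 call, Fosl2, against 0.388% of 7472 genes called higher. It had 52.9 and 56.4 CPM with acupuncture, against 17.2 and 12.5 CPM in dysentery (log2 1.89 ± 0.25, adjusted p = 0.0350), and it lost the call without acupuncture replicate 2 (0.0896) or dysentery replicate 1 (0.0705). Junb had 5133 and 5157 CPM with acupuncture, against 3029 and 1345 CPM in dysentery (log2 1.27 ± 0.32, adjusted p = 0.172). The number of called members ran from 0 to 5 over the alternatives tried, over which the number of all genes called moved too.

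In neutrophils 0 of the 7 members were called in edgeR (2 at an unadjusted p below 0.05, Fosl1 and Jund, and 0 in DESeq2), against 0.663% of 4374 genes called in either direction. Of those 4374 genes, 438 had an unadjusted p below 0.05 in edgeR. Fosl1 had 96.6 and 117 CPM with acupuncture, against 181 and 207 CPM in dysentery (log2 -0.90 ± 0.29, adjusted p = 0.256). Jund had 1683 and 819 CPM with acupuncture, against 2046 and 2455 CPM in dysentery (log2 -0.90 ± 0.36, adjusted p = 0.415). Jun had 3921 and 2356 CPM with acupuncture, against 4702 and 4638 CPM in dysentery (log2 -0.62, adjusted p = 0.537), and Fosb had a log2 value of -0.63. Both acupuncture libraries were below both dysentery libraries for these 4 members, as for 17.6% of genes tested, and above them for Fosl2 alone, as for 22.6%. Junb was level, at 4985 and 4659.8 CPM with acupuncture and 4079.5 and 4961 CPM in dysentery (log2 0.03 ± 0.31).

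Natural killer cells had 0 of 6 tested members called (0 at an unadjusted p below 0.05 in edgeR, and 0 in DESeq2), against 0.313% of 6384 genes. At that unadjusted threshold stood 783 of the 6384 genes. The members' log2 values ran from -0.41 for Jun to 0.36 for Fosl2. Dysentery replicate 1 was the highest natural killer library for 5 of the 7 members, with Fos at 4251 and 3706 CPM with acupuncture, against 6762 CPM in dysentery replicate 1 and 2957 CPM in dysentery replicate 2. The 7 neutrophil markers summed to 109 and 31.6 CPM in the natural killer sums with acupuncture, against 910.4 CPM in dysentery replicate 1 and 30.4 CPM in dysentery replicate 2, and their part was not tested. Vascular endothelial cells had 0 of 5 tested members called (1 at an unadjusted p below 0.05, Jund, and 0 in DESeq2), against 0.0148% of 6753 genes. An unadjusted edgeR p below 0.05 was found there for 694 of the 6753 genes. Jun had 1999 and 1887 CPM there with acupuncture, against 1420.2 and 2155 CPM in dysentery (log2 0.05 ± 0.21, adjusted p = 0.959). Jund had 447 and 334 CPM with acupuncture, against 619 and 654 CPM in dysentery (log2 -0.78 ± 0.20, adjusted p = 0.392). The endothelial gate also took in lymphatic cells unevenly: 5 lymphatic markers summed to 36.0 and 1710.05 CPM with acupuncture and 485 and 1.56 CPM in dysentery. Over all kept cells together, 0 of 7 members and 0 of 15438 genes were called in edgeR. At an unadjusted p below 0.05 stood 5 of the 7 members and 2418 of the 15438 genes.

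**Figure D2:**
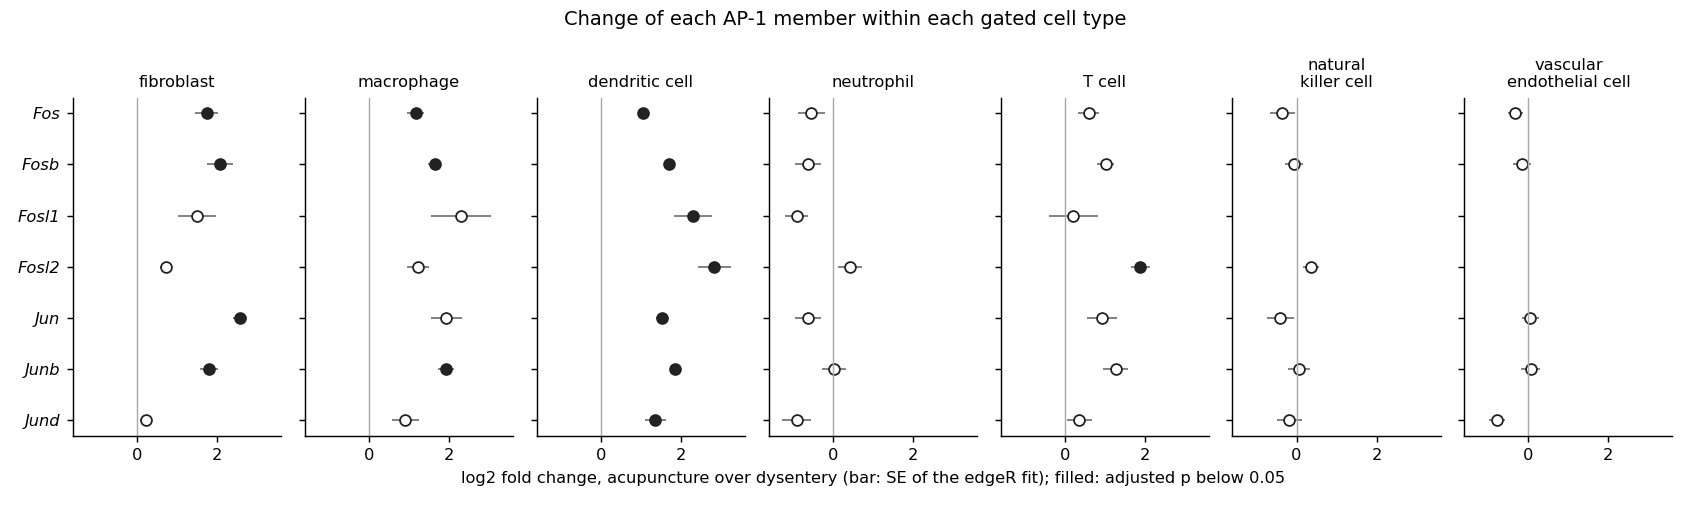
Log2 fold change (acupuncture over dysentery) of each member in each gated cell type, with the standard error of the edgeR fit as a bar; filled points have an adjusted p below 0.05 and a missing point was not tested. The points lie right of 0 for all 7 members in fibroblasts, macrophages, dendritic cells and T cells, and on both sides of 0 in neutrophils, natural killer cells and endothelial cells.

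Whether the change differed between cell types was tested by an interaction with the fibroblast change in 1 edgeR fit. Jun changed less in neutrophils (log2 difference -3.03 ± 0.54 SE, adjusted p = 0.00737), natural killer cells (-2.94 ± 0.54, adjusted p = 0.00842) and vascular endothelial cells (-2.55 ± 0.53, adjusted p = 0.0397) than in fibroblasts. Fosb did so too in neutrophils (-2.46 ± 0.45, adjusted p = 0.00889), natural killer cells (-2.11 ± 0.44, adjusted p = 0.0311) and endothelial cells (-2.19 ± 0.45, adjusted p = 0.0328). These are 2 of 7 members in each, against 0.519%, 0.382% and 0.352% of the 10213 genes tested in neutrophils, natural killer cells and endothelial cells. Fos had differences of -1.99 to -2.03 in the same 3 types and did not pass (adjusted p 0.0810 to 0.106). For macrophages, dendritic cells and T cells 0 of 7 members passed, against 2.73%, 0.431% and 0.235% of genes, with Fosl2 in dendritic cells nearest (2.19 ± 0.53, adjusted p = 0.0691). The macrophage differences ran from -0.55 ± 0.52 (Jun) to 0.86 ± 0.63 (Fosl1). In place of these 6 calls, 1 was made without acupuncture replicate 1 and 0 without acupuncture replicate 2, while 13 were made without dysentery replicate 2.

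In fibroblasts Jun held a larger part of the family's UMIs with acupuncture and Jund a smaller one. Jun made up 37.6% and 35.3% of the family's UMIs with acupuncture, against 22.5% and 19.5% in dysentery, and Jund 11.1% and 6.88% with acupuncture, against 27.7% and 23.8% in dysentery. Neither range overlapped (two-sided exact permutation p = 0.333 for each, the smallest that 2 libraries against 2 allow). The shares of Fos, Junb and Fosb overlapped between the groups. The 7 members together were 0.919% ± 0.113 of all fibroblast UMIs with acupuncture and 0.273% ± 0.0354 in dysentery (SD, n = 2 each). In macrophages they were 1.75% ± 0.0602 with acupuncture and 0.635% ± 0.211 in dysentery, and there Fos had the lower share with acupuncture, 25.4% and 29.6%, against 34.9% and 37.2% in dysentery. Jun had 29.4% and 27.0% of macrophage family UMIs with acupuncture, against 24.6% and 16.7% in dysentery. Neutrophils held 1.45% ± 0.408 with acupuncture and 1.90% ± 0.0536 in dysentery.

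**Figure D3:**
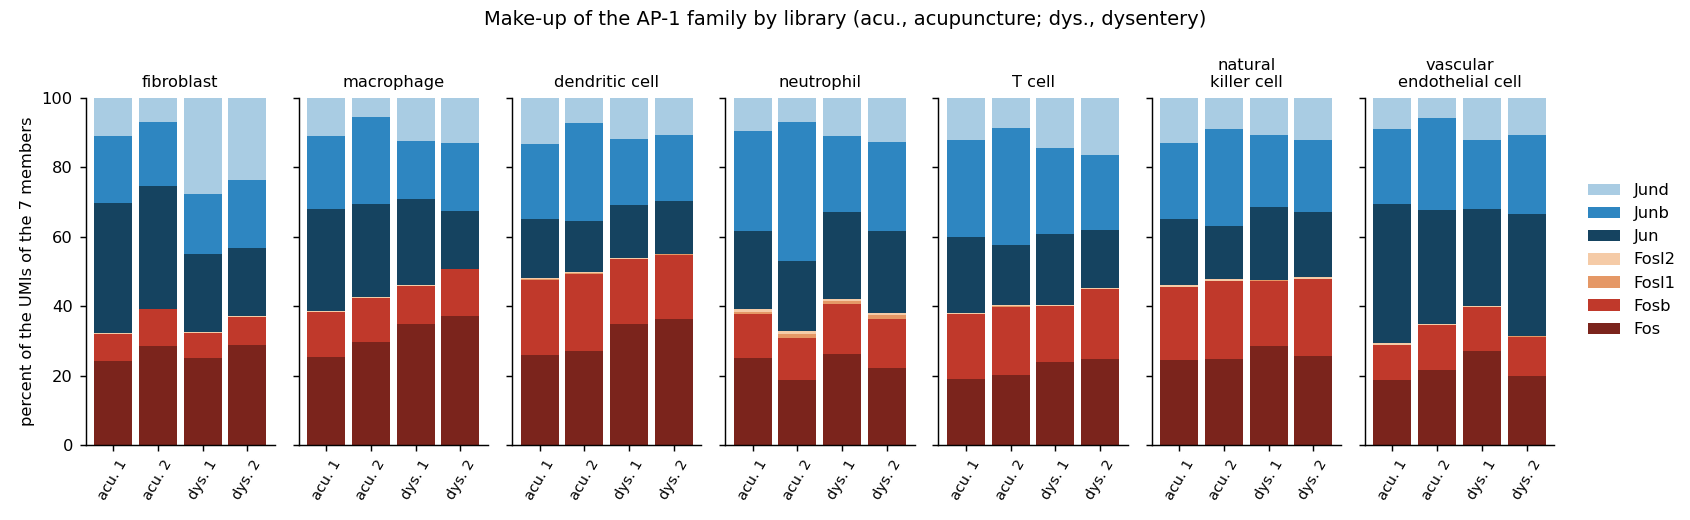
Percent of the summed UMIs of the 7 members that each member contributes, by gated cell type and library. In fibroblasts the Jun segment is 37.6% and 35.3% with acupuncture against 22.5% and 19.5% in dysentery, and the Jund segment is smaller; Fosl1 and Fosl2 are thin bands in every cell type.

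Shares of cells with a UMI include any free RNA that droplets take up, for which no tested cell type gave a measure, so a share with 1 UMI is not read as a share of expressing cells. In fibroblasts the groups lay further apart in the shares with 5 or more UMIs of Fos or Jun than in those with 1. With each cell thinned to 2000 UMIs, a Fos UMI was found in 51.3% and 69.7% of fibroblasts with acupuncture and 48.5% and 62.9% in dysentery, which overlap. Without thinning the Fos share was 60.9% and 73.5% with acupuncture and 69.5% and 79.0% in dysentery, and that of Jun 83.9% and 82.6%, against 78.0% and 78.6% in dysentery. The thinned cells number 3540 and 3334 with acupuncture and 2565 and 6239 in dysentery, after 465 and 424 shallower cells with acupuncture and 327 and 529 in dysentery were left out. At least 5 Fos UMIs were found in 24.5% and 39.2% with acupuncture, against 5.65% and 9.92% in dysentery. For Jun the share with a UMI was 74.2% and 77.1% with acupuncture, against 52.5% and 54.6% in dysentery, and the share with at least 5 UMIs was 37.3% and 47.4%, against 3.78% and 4.01% in dysentery. Jund was detected in 72.8% and 63.5% of fibroblasts with acupuncture and 69.2% and 71.8% in dysentery. The 95% Clopper-Pearson bounds of these fibroblast shares lay within 1.95 percentage points, which covers counting error only. With 2 libraries a group, no share could pass a test (two-sided exact permutation p = 0.333 for the separated shares).

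In macrophages the groups were apart at both 1 and 5 UMIs. A Jun UMI was found in 88.1% and 94.7% of macrophages with acupuncture, against 57.8% and 39.7% in dysentery, and at least 5 in 69.6% and 77.3%, against 27.7% and 8.90% in dysentery. For Fos the share with at least 5 UMIs was 62.9% and 80.4% with acupuncture, against 36.5% and 27.0% in dysentery. Counting 4 or more of the 7 members in the same thinned cell gave 82.6% and 92.5% of macrophages with acupuncture, against 47.2% and 35.8% in dysentery, and 41.2% and 54.8% of fibroblasts with acupuncture, against 19.6% and 30.6% in dysentery. Fibroblasts with a Fos but no Jun UMI were 4.18% and 6.09% with acupuncture, against 19.2% and 24.7% in dysentery. In neutrophils 4 or more members were found in 80.3% and 71.2% of cells with acupuncture and 90.4% and 84.0% in dysentery. Taken 1 gene at a time, Fos and Jun were each detected in at least 33.3% of the cells of every tested type in every library, so no type served as a measure of free RNA for these genes. Fosl1 was detected in 16.7% and 23.1% of neutrophils with acupuncture and 29.3% and 28.0% in dysentery, against 0.0641% to 0.390% of fibroblasts over the 4 libraries.

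**Figure D4:**
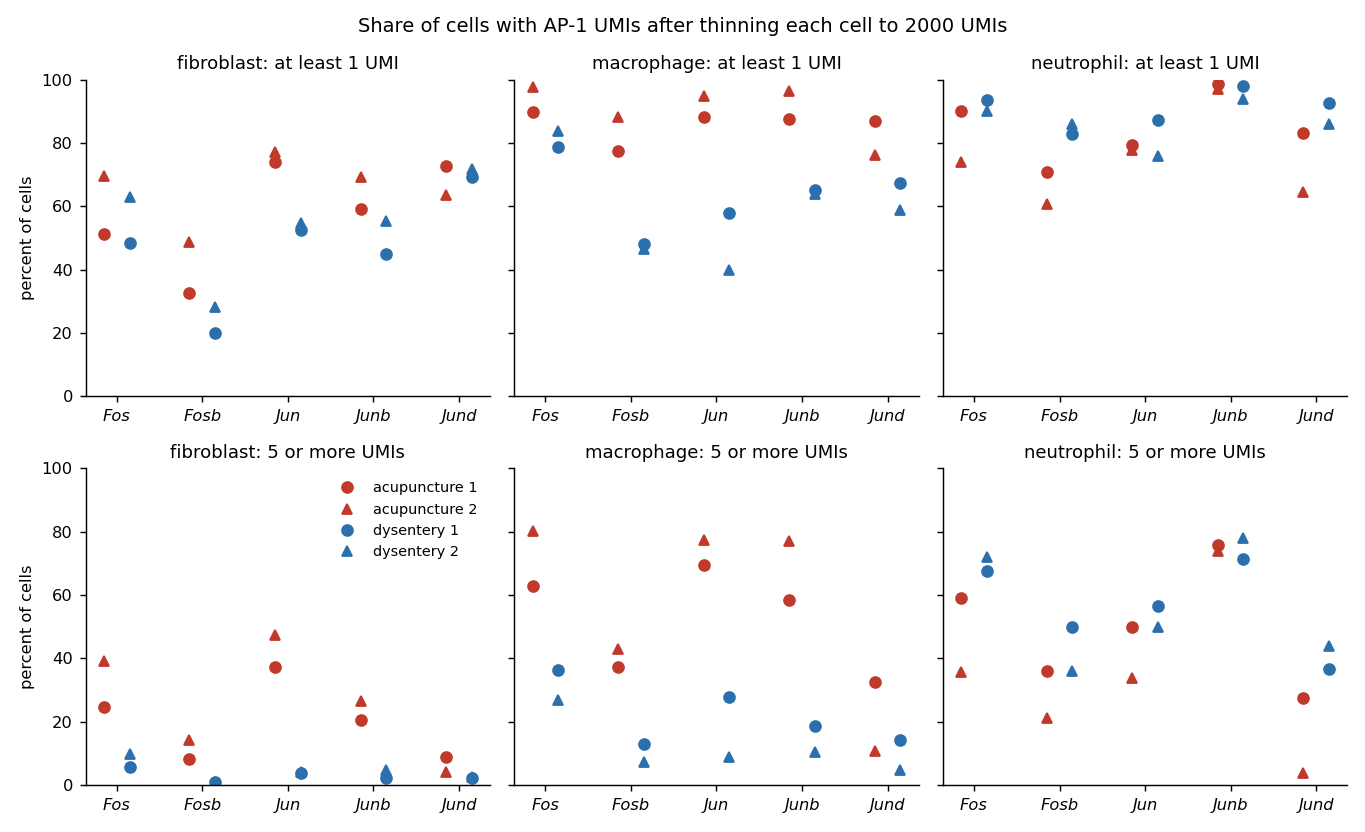
Percent of cells with at least 1 UMI (upper panels) and with 5 or more UMIs (lower panels) of 5 members in fibroblasts, macrophages and neutrophils, each cell thinned to 2000 UMIs; each point is 1 library, acupuncture left of dysentery. In fibroblasts the Fos points overlap for 1 UMI but not for 5 UMIs, where they lie at 24.5 and 39.2 against 5.65 and 9.92.

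Fibroblasts with UMIs of both Cd34 and Pdgfra, the surface markers used for telocytes, were split by a UMI of Ptgs2, the prostaglandin synthase named in the study's title. Jun stood at 5055 and 4487 CPM in cells with Ptgs2 and 2331 and 2275.0 CPM in cells without it in the acupuncture libraries, against 694 and 698 CPM with and 553 and 551 CPM without it in dysentery. Cells with a Ptgs2 UMI were also deeper with acupuncture (median 13003 and 15931 UMIs, against 8603 and 10475 without Ptgs2), and the part of depth in this was not tested.

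Genes that work with the family were read from 8 lists. Their counts stand beside the genes called higher over the whole table, 1.87% in fibroblasts, 3.66% in macrophages, 3.88% in dendritic cells and 0.388% in T cells. The median log2 change over all genes was -0.0058 in fibroblasts, -0.0057 in macrophages, -0.0032 in dendritic cells and -0.0028 in T cells. Of other immediate early genes, 17 of 26 tested rose in fibroblasts (median log2 1.81), 9 of 26 in macrophages (median 1.41) and 18 of 21 in dendritic cells (median 1.28), and 0 fell in these types. In fibroblasts Egr1, a zinc finger factor, had 1795 and 1935 CPM with acupuncture, against 221 and 211 CPM in dysentery (log2 3.13 ± 0.16, adjusted p = 0.00185). Csrnp1, a nuclear factor, rose by 3.20, and Egr4 passed at very low counts (1.26 and 1.08 CPM with acupuncture, against 0.0904 and 0 CPM in dysentery), for which no fold is given. In macrophages the largest calls included the stress genes Gadd45b (2.76), Ier3 (2.37) and Ier2 (1.55). In T cells 2 of 21 rose (median 0.97), Atf3 (2.64, adjusted p = 0.00260) and Ier3 (1.65, adjusted p = 0.0396). In edgeR 0 of 20 were called in neutrophils, 0 of 21 in natural killer cells and 0 of 23 in vascular endothelial cells.

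Among bZIP relatives, which can pair with Jun or Fos proteins or compete for their sites, 3 of 20 rose and 1 fell in fibroblasts (median log2 0.08), 2 rose and 1 fell of 20 in macrophages (median 0.37), and 7 of 13 rose in dendritic cells (median 0.74). Over all genes 0.888% were called lower in fibroblasts, and 201 of 11798 in macrophages. In T cells 3 of 13 rose (median 0.69) and in natural killer cells 1 of 12 (median 0.31, against 13 of 6384 genes called higher). Atf3, a stress-induced relative that also stands in the immediate early list, had 810.1 and 913 CPM in fibroblasts with acupuncture, against 44.2 and 45.7 CPM in dysentery (log2 4.28 ± 0.18, adjusted p = 0.00144). Its change was larger than that of any Fos or Jun member there, a comparison made between estimates and not tested. Maff (1.27), a small Maf protein without an activation domain, and the cAMP-responsive factor Crem (0.92) also rose in fibroblasts, and the repressor Bach2 fell by 1.50 on the log2 scale. In macrophages Crem (1.74) and Atf4 (1.50) rose and Batf3, a factor of dendritic cells, fell by 1.17. Crem was also called higher in dendritic cells (1.85), T cells (1.88, adjusted p = 0.00853) and natural killer cells (1.60, adjusted p = 0.0250).

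Few genes of the lists upstream of AP-1 were called, with Map3k8, a MAP kinase kinase kinase, called in 3 cell types. Of MAP kinases, which activate AP-1 by phosphorylation, 0 of 18 were called in fibroblasts in edgeR, 2 of 18 rose in macrophages, Map3k8 (log2 1.50) and Map2k3 (0.79), 1 of 16 rose in dendritic cells, Map3k8 (1.32, adjusted p = 0.0180), and 1 of 17 in T cells, again Map3k8 (1.86, adjusted p = 0.0350). The serum response factor and its partners had 0 of 6 called in fibroblasts, while Mrtfa fell by 0.75 in macrophages. Phosphatases and other brakes on MAP kinases had 2 of 10 higher in fibroblasts, Dusp5 (1.64) and Dusp10 (1.13), 0 of 8 called in macrophages and 3 of 5 higher in dendritic cells. Ubiquitin ligases that turn over Fos and Jun proteins had 0 of 5 called in fibroblasts and 0 of 5 in macrophages. RNA does not measure phosphorylation or protein turnover.

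Genes often given as AP-1 targets rose in 6 of 24 tested in fibroblasts (median log2 0.71) and 5 of 23 in macrophages (median 0.92). In dendritic cells 4 of 12 rose (median 0.90), and 0 fell in these types. Over all genes 1.87%, 3.66% and 3.88% were called higher there, in that order, with medians near 0. In neutrophils 2 of 11 rose (median 0.54), against 9 of 4374 genes, while 0 members were called there. In T cells 1 of 13 rose (median 1.12), against 29 of 7472 genes. In natural killer cells 1 of 10 rose (median 0.086), against 13 of 6384 genes. Vascular endothelial cells had 0 of 15 called in edgeR (median 0.48). In fibroblasts the cytokine Il6 had 116 and 136 CPM with acupuncture, against 0.316 and 0.496 CPM in dysentery (log2 8.18 ± 0.26, adjusted p = 0.00120), and the chemokine Cxcl1 (4.90) and the lipid kinase Sphk1 (3.14) also rose. In macrophages the largest were the growth factors Areg (4.06) and Hbegf (2.24), Cxcl1 (3.76) and the haem-degrading enzyme Hmox1 (2.24), which had 785 and 917 CPM with acupuncture, against 201 and 181 CPM in dysentery. Heat shock genes were called higher in 7 of 12 in fibroblasts (median log2 1.17), Dnajb4 (2.14), Hsp90aa1 (1.48), Dnajb1 (1.46) and Hsph1 (1.44) the most. In macrophages 0 of 12 were called in edgeR, though all 12 had positive values (median 0.95). In dendritic cells 3 of 11 were called higher (median 0.45). Immediate early and heat shock genes are also known to respond to warm enzymatic digestion of tissue, which all 4 libraries went through. Its length and timing for each library were not given in the sources used here, so its part cannot be told apart.

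Across the 28 sums of cell type and library, the genes most like each member in log2 CPM were mostly other early response genes. Fos was most like Klf6 (r = 0.957), Zfp36 (0.940) and Ier2 (0.894), and Fosb was most like Klf6 (0.963), Tnfaip3 (0.938) and Btg2 (0.936). Junb was most like Atf4 (0.956), Ier2 (0.953) and Zfp36 (0.945), and Jun was like Ccnl1 (0.935) and Ier2 (0.887). Fosl1 was most like Nfkbia (0.961), Mcl1 (0.948) and Marchf7 (0.936), and Fosl2 was most like Map3k8 (0.928), Zfand5 (0.908) and a row with no symbol. Jund had the weakest matches, Klf6 (0.878), H3f3a (0.860) and Eif1 (0.845). Within the family, Fosb and Junb were most alike (r = 0.934) and Fosl1 and Jund least (0.725). These points share their 4 libraries and differ in cell type and depth, so the values describe these sums.

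Cell types with too few cells to test were read as values. Mast cells, the histamine-storing cells (18 and 70 cells with acupuncture, 7 and 12 in dysentery), had Jun at 6761 and 9857 CPM with acupuncture, against 3309 and 1450.1 CPM in dysentery. This was the highest mean Jun level of any gate with acupuncture, but mural cells overlapped it, at 5330 to 9141 CPM with acupuncture. B cells (30 and 23 cells with acupuncture, 107 and 28 in dysentery) had Jun at 2345 and 798 CPM with acupuncture and 1936 and 1086 CPM in dysentery, which overlap.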

How the data were processed

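Single-cell RNA of fascia was measured in 4 libraries, 2 per group. Each deposited matrix gives unnormalized UMI counts, which the authors made with Cell Ranger 6.0.1 and STAR, per the submitters' processing notes. Those notes list mRatBN7.2 and also GRCh38.p13, with no role for either. The deposited barcode and gene lists hold other content (names, no measurements).

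The 7 members and the gene lists were chosen with earlier results of these data known. Cells were kept with at least 300 genes, 500 UMIs and at most 20% mitochondrial UMIs, which left 34904 of 38282. A cell was typed by UMIs of at least 4 markers (3 for dendritic, natural killer and mural cells), and fibroblasts also by at least 50 fibroblast-marker UMIs per 10000, below which every other type had to lie. The gates were adjusted after marker counts were seen, and use no AP-1 gene. No doublet caller was run, and cells meeting 2 gates were left out.

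UMI counts were summed per cell type and library and tested with edgeR 4.0.16 (quasi-likelihood, TMM factors, filterByExpr with a minimum count of 10, Benjamini-Hochberg over all tested genes) in R 4.3.3. A joint fit of the 28 sums, with the library as a block, gave levels between types and differences in change. DESeq2 1.42.0, other scalings, filters and gates and leaving out each library were alternatives. The tests were tried on simulated data. Shares of cells used counts thinned to 2000 UMIs, and two-sided exact permutation tests, in which 2 against 2 cannot go below 0.333. Named list genes are up to 4 per list with the largest absolute change among those called in fibroblasts or macrophages. Some genes that the naming rules select are not reported here. Nothing says that libraries of a group come from separate animals, so p-values measure the spread between these libraries, which may be technical. Intervals cover counting error only. Depth was 53066666 to 93897006 UMIs per library.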

Additional observations from a re-analysis of the deposited data

Results flagged for a closer look

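The change with acupuncture differed between cell types for Jun and Fosb in the joint edgeR fit. Against the fibroblast change, on the log2 scale, Jun differed by -3.03 in neutrophils, -2.94 in natural killer cells and -2.55 in vascular endothelial cells. Fosb differed by -2.46 in neutrophils, -2.11 in natural killer cells and -2.19 in vascular endothelial cells. Jun had 3160 and 3527 CPM in fibroblasts with acupuncture, against 558 and 580.2 CPM in dysentery, while its neutrophil values were 3921 and 2356 CPM with acupuncture, against 4702 and 4638 CPM in dysentery.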

How the results depend on the processing

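Alternatives gave 802 comparisons within a cell type: log2 changes of members, called or not, and counts of called members and of called genes. A log2 change was the same if it kept direction and side of the threshold, a count if within a fixed ratio. Of the 802, 650 were the same, 85 stronger (newly called or a larger count), 48 weaker and 19 reversed. Of 49 on differences from fibroblasts, 30 were the same, and of 138 on levels between types, 132. Both of these sets cover members called in the main fit and their number. Shares of cells cannot pass a test with 2 libraries a group, and 8 of 146 reversed. The count of members called higher ran from 2 to 4 in fibroblasts, 0 to 6 in macrophages and 0 to 3 in T cells when 1 library was left out, and the count whose change differed from fibroblasts from 0 to 13. DESeq2 called 5 members in macrophages, 5 in dendritic cells (of 7; Jund missed and Fosl1 had no adjusted p), 2 in T cells and 10 differences from fibroblasts. Without a filter on low counts, 7 members in macrophages, 5 in T cells and 15 differences were called, and 1 member was lower in endothelial cells. In T cells library totals without TMM gave 0, a mitochondrial limit of 10% gave 0, and leaving out the 5% of cells with the most UMIs gave 2.

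The titles give replicate numbers and no pairing between the groups. The correlation of same-numbered deviations was -0.237 to 0.202 over the cell types, which cannot decide whether same-numbered libraries were handled together. With the replicate block, 5 members were called higher in fibroblasts, 0 in macrophages, 7 in dendritic cells and 4 in T cells, and 2 were called lower in neutrophils. The crossed pairing, added after the data were seen, called 1 member lower in endothelial cells. The number of all genes called also moved widely between the alternatives, and its share is not set beside these member counts. The member counts under alternatives therefore show how far calls move and are not results about the members.

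Reversals of log2 changes were all of values that had not passed. Leaving out 1 library gave -0.16 to 0.33 for Junb in neutrophils, -0.33 to 1.44 for Fosl1 and -0.037 to 0.86 for Jund in T cells. In natural killer cells it gave -0.83 to 0.33 for Fos, -0.41 to 0.33 for Fosb, -0.89 to 0.28 for Jun, -0.36 to 0.62 for Junb and -0.62 to 0.27 for Jund. In endothelial cells it gave -0.50 to 0.12 for Fosb, -0.22 to 0.39 for Jun and -0.24 to 0.32 for Junb. A stricter gate gave -0.30 for Junb in neutrophils, and 0.37 for Fosb and 0.22 for Fos in endothelial cells. The acupuncture minus dysentery difference in fibroblasts, in percentage points, was -4.45 to 13.95 for cells with a Fos UMI (-7.02 without thinning), -6.98 to 2.26 for Jund, -2.91 to 1.55 for the Fos share of family UMIs and -0.62 to 1.63 for that of Junb. For Fosb in macrophages it was -0.58 to 1.76. The causes were not tested. A stricter gate left fewer than 30 dendritic cells in acupuncture replicate 1, so no value was had there. Fosl1 rests on few UMIs outside neutrophils, and Fosl2 on few in the dendritic cells of the dysentery libraries.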
